A study of Mus musculus with 6 samples.

Results

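The choroid plexus epithelium genes are 31 genes enriched in the secretory epithelium of the brain ventricles, found by symbol among the 55421 genes of the count table. They were proposed with the values of these libraries already known, so the members were selected on the levels given here. Their values are a description and support nothing beyond it. RNA was sequenced from the hippocampus of male wild-type C57BL/6N mice aged 8 to 10 weeks. The 3 mice labelled SP received substance P, a tachykinin neuropeptide, at 10 µM in 100 µL under the skin on each of 14 days. The 3 mice labelled vehicle received 100 µL of saline on the same 14 days. Each mouse gave 1 library of stranded mRNA, and the replicate number, which the labels call a batch, is shared by 1 mouse of each label. Estimated counts totalled 23105903, 24560605 and 27605935 in the libraries labelled vehicle, called Vehicle 1 to 3 here, and 23608419, 24284625 and 22349964 in those labelled SP, called SP 1 to 3.

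The choroid plexus is a folded sheet of ciliated, polarised epithelial cells over a fenestrated capillary bed, and it projects into the ventricle beside the hippocampus. Its epithelium secretes cerebrospinal fluid by moving sodium, bicarbonate, chloride and water from blood to ventricle, and its tight junctions form the barrier between blood and that fluid. It also releases carrier proteins, among them transthyretin, and takes up folate and other solutes for the brain. A dissected hippocampus may carry some of this tissue with it.

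The labelled tissue was checked against 9 markers of hippocampal neurons, which were present in all libraries. Their summed expression in CPM (counts scaled by edgeR to a normalized library size) was 1031, 1020 and 1062 in Vehicle 1 to 3 and 1112, 1258 and 1013 in SP 1 to 3, with Zbtb20 the most abundant. The 12 defining markers of choroid plexus epithelium were also above 0 in every library. All 31 members passed edgeR's filter on low counts, as did 17069 of the 55421 genes. Library SP 1 stood apart from the other 5 in these genes, so several comparisons below are also given without it. In bulk tissue, fewer cells of a type and less RNA per cell cannot be told apart.

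Expression of the 31 members was lower in library SP 1 than in each of the other 5 libraries, which also differed among themselves. The sum of the members came to 6719, 6116 and 7903 CPM in Vehicle 1 to 3. It was 569, 4825 and 6365 CPM in SP 1, SP 2 and SP 3. Thus SP 1 held 8.91% of the mean of the other 5 libraries. Library SP 2 was the lowest of those 5 and Vehicle 3 the highest, so that the libraries labelled SP overlapped with those labelled vehicle through SP 3. As a share of all counts, the members took 0.677%, 0.617% and 0.790% in Vehicle 1 to 3 and 0.0566%, 0.479% and 0.635% in SP 1 to 3. The 95% Wilson interval of the share in SP 1 was 0.0556% to 0.0575%, and that of the next lowest library, SP 2, was 0.476% to 0.482%. These intervals cover counting error only.

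**Figure D1:**
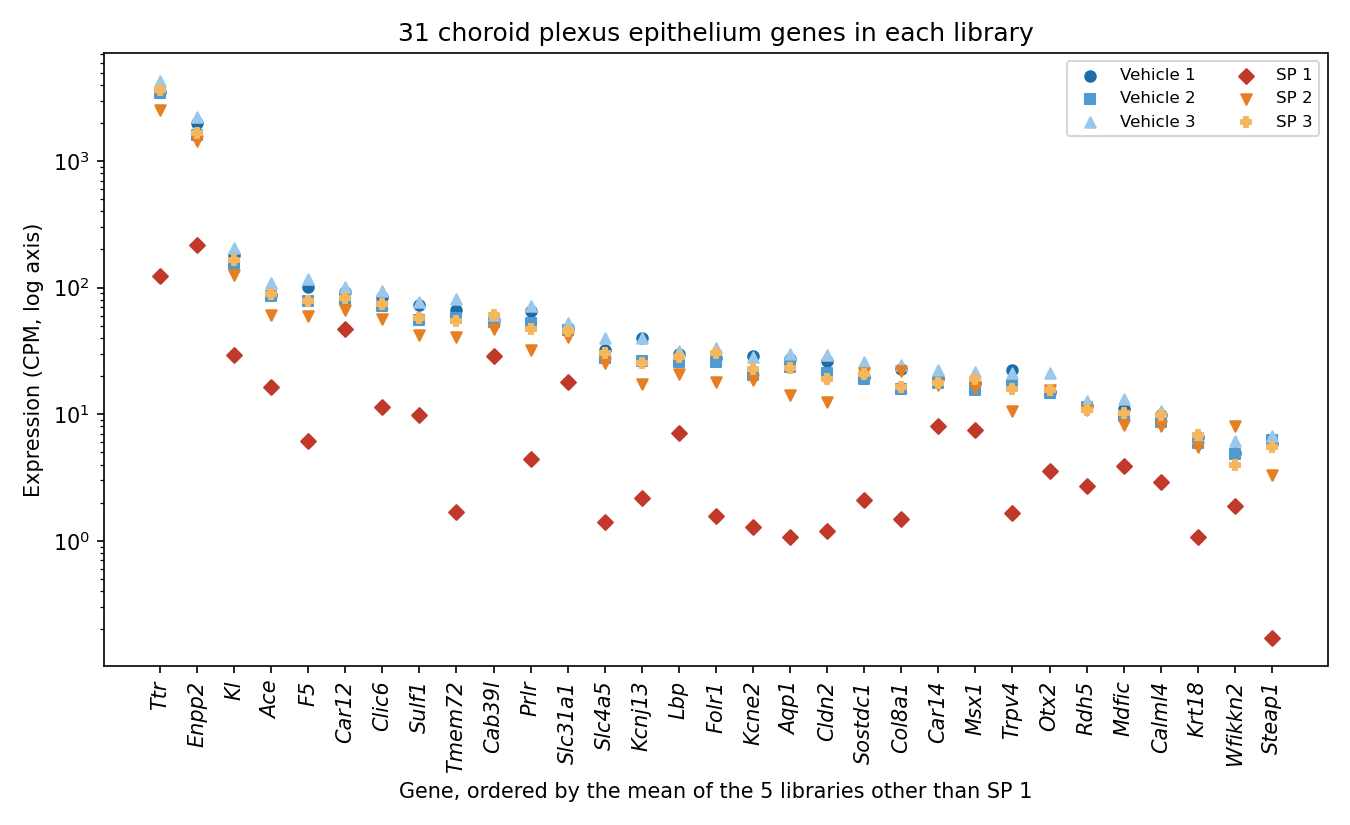
Expression of the 31 members in each of the 6 libraries, in CPM on a log axis, with 1 point for each library and genes ordered by the mean of the 5 libraries other than SP 1. The point of SP 1 is the lowest for 31 of 31 genes, while the other 5 libraries differ by up to 2.36-fold within a gene.

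SP 1 was the lowest of the 6 libraries for 31 of 31 members, and for 18.9% of all genes tested. A library was compared with the other 5 as its log2 CPM minus their mean log2 CPM, and more than 2-fold lower was counted as lower. With 1 library on one side this comparison has no test. By this rule 29 of 31 members were lower in SP 1, against 1.85% of all genes, and the exceptions were Car12 and Cab39l. The median log2 ratio of the members in SP 1 was -2.73, with genes from -5.03 to -0.83, and the median over all genes tested was 0.0016. Of the other libraries, 0 members were more than 2-fold lower in any of them. The share of all genes that were lower was 0.65% in Vehicle 1, 0.475% in Vehicle 2, 0.492% in Vehicle 3, 1.45% in SP 2 and 0.609% in SP 3.

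The members' median log2 ratio was 0.74, 0.43 and 0.95 in Vehicle 1, 2 and 3, and 0.07 and 0.52 in SP 2 and SP 3, but in these the mean of the others includes SP 1. With SP 1 left out of the reference, a choice made after seeing the data, the medians were 0.14, -0.11 and 0.41 for the libraries labelled vehicle and -0.42 and -0.04 for SP 2 and SP 3. Among these 5 libraries, SP 2 was the lowest for 25 members, Vehicle 2 for 4 and SP 3 for 2, against 27.0%, 16.3% and 18.8% of all genes. Vehicle 3 was the highest of all 6 libraries for 26 members, and for 16.6% of all genes. The ratio of the highest to the lowest of the 5 had a median of 1.61 over the members, and ran from 1.16 to 2.36.

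**Figure D2:**
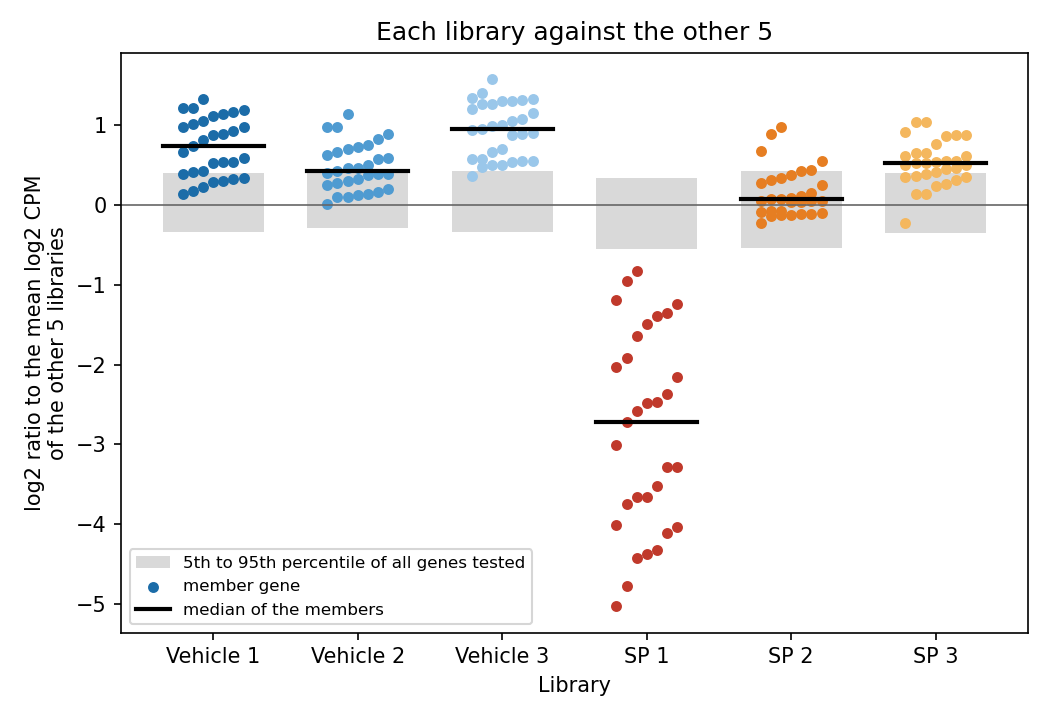
Log2 ratio of each library to the mean log2 CPM of the other 5 for the 31 members (points), with their median (black line) and the 5th to 95th percentile of all genes tested (grey). The median of SP 1 lies at -2.73 and those of the other libraries lie between 0.07 and 0.95, since their reference includes SP 1.

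Of the members that are secreted or act outside the cell, Ttr was the most abundant. Ttr (ENSMUSG00000061808) encodes transthyretin, a carrier of thyroid hormone and of retinol-binding protein. It had 3489, 3473 and 4297 CPM in Vehicle 1 to 3, against 125, 2540 and 3612 CPM in SP 1 to 3. SP 1 was thus 27.9-fold below the mean of the other 5 libraries, which was 3482 ± 626 CPM (SD, n = 5 libraries), and SP 3 lay between the libraries labelled vehicle. Among all genes of a library, Ttr ranked 14, 15 and 13 by count in Vehicle 1 to 3 and 1724, 19 and 15 in SP 1 to 3.

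Enpp2, which encodes autotaxin, the enzyme that makes lysophosphatidic acid, and is also transcribed in oligodendrocytes, had 1996, 1591 and 2213 CPM in Vehicle 1 to 3. In the libraries labelled SP it had 218, 1439 and 1667 CPM, so that SP 1 held 12.3% of the mean of the other 5. Its share of the members' counts was 26.0% to 29.8% in the other 5 libraries and 38.4% in SP 1. The share of Ttr was 51.9% to 56.8% in the other 5 and 21.9% in SP 1. The composition of the members' counts in SP 1 therefore differed from that of the other libraries.

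The anti-ageing hormone klotho, a coreceptor for fibroblast growth factor 23, is encoded by Kl. Its expression was 181, 153 and 206 CPM in Vehicle 1 to 3 and 29.2, 127 and 165 CPM in SP 1 to 3. F5, the gene of coagulation factor V, had 100, 78.3 and 116 CPM against 6.17, 59.6 and 78.0 CPM, and its groups did not overlap. Sostdc1, an extracellular antagonist of BMP and Wnt signalling, had 19.6, 18.9 and 25.7 CPM against 2.09, 21.3 and 20.6 CPM. In Sostdc1 and in the collagen VIII chain gene Col8a1, SP 2 and SP 3 lay within the range of the libraries labelled vehicle. In the lipopolysaccharide-binding protein gene Lbp, the endosulfatase gene Sulf1 and the angiotensin-converting enzyme gene Ace, SP 1 held 25.9%, 16.2% and 19.0% of the mean of the others. Wfikkn2, which encodes a protein with protease inhibitor domains that binds growth and differentiation factors, differed from the rest in that SP 2 was its highest library, with 8.13 CPM where the libraries labelled vehicle had 4.94, 4.85 and 6.13 CPM. Its level in SP 1 was 1.87 CPM, and in SP 3 it was 3.99 CPM.

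The 10 members that move ions, water or metals were summed to 401, 337 and 436 CPM in Vehicle 1 to 3 and 92.4, 271 and 344 CPM in SP 1 to 3. Aqp1, the water channel of the apical membrane, had 27.4, 23.4 and 30.1 CPM against 1.06, 14.2 and 23.2 CPM. Slc4a5, a sodium bicarbonate cotransporter, had 31.9, 27.8 and 40.0 CPM against 1.41, 25.5 and 30.6 CPM. In Aqp1 the groups did not overlap, whereas in Slc4a5 the library SP 3 lay above Vehicle 2.

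The inward rectifier potassium channel gene Kcnj13 had 40.3, 26.3 and 39.7 CPM in Vehicle 1 to 3, against 2.17, 17.3 and 25.5 CPM in SP 1 to 3. Kcne2, a potassium channel beta subunit gene, had 29.0, 20.3 and 28.3 CPM against 1.28, 18.6 and 22.7 CPM. Here SP 1 was far below the rest in both genes, and the other libraries of the 2 labels overlapped in Kcne2 only. In Trpv4, which encodes a cation channel opened by cell swelling, SP 1 held 9.54% of the mean of the other 5. In Clic6, a chloride intracellular channel gene, it held 14.8%. Steap1, of the metalloreductase family, had the fewest counts in SP 1 of any member, 4 counts or 0.170 CPM, where the libraries labelled vehicle had 5.80, 6.22 and 6.71 CPM.

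The members least reduced in SP 1 included other transport genes. Car12, a membrane carbonic anhydrase gene, had 92.6, 80.8 and 100 CPM in Vehicle 1 to 3 and 47.2, 66.7 and 82.7 CPM in SP 1 to 3. Car14, also a carbonic anhydrase gene, held 43.5% of the mean of the others in SP 1, and the copper importer gene Slc31a1 held 38.7%. In 14 members SP 1 was under 10% of the mean of the other 5, in 9 it was between 10% and 30%, and in 8 it was between 30% and 60%.

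Of the receptor and other membrane genes, Tmem72 had the lowest relative level in SP 1 of the 31 members. Its expression was 66.1, 57.3 and 81.2 CPM in Vehicle 1 to 3 and 1.70, 40.6 and 54.2 CPM in SP 1 to 3, a level in SP 1 of 2.85% of the mean of the others. Folr1, the folate receptor alpha gene, had 28.0, 25.8 and 33.6 CPM against 1.58, 17.9 and 30.6 CPM, and its groups overlapped through SP 3. The prolactin receptor gene Prlr had 65.4, 52.5 and 71.3 CPM against 4.43, 32.1 and 46.7 CPM. All libraries labelled SP were below all labelled vehicle in Prlr, Tmem72 and the retinol dehydrogenase gene Rdh5, where SP 2 and SP 3 were both at 10.9 CPM and the lowest library labelled vehicle was at 11.3 CPM.

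Cldn2, which encodes the cation-permeable claudin of the epithelial tight junctions, had 26.5, 21.1 and 29.5 CPM in Vehicle 1 to 3 and 1.19, 12.5 and 19.1 CPM in SP 1 to 3, without overlap. The keratin gene Krt18 was highest in SP 3, with 6.86 CPM, and lowest in SP 1, with 1.06 CPM. Calml4, a calmodulin-like gene, held 31.2% of the mean of the others in SP 1, and Cab39l, a scaffold gene of the LKB1 kinase complex, held 51.4%. The homeobox gene Otx2, a regulator of choroid plexus identity, had 15.1, 14.8 and 21.0 CPM against 3.58, 15.5 and 15.7 CPM, so that SP 2 and SP 3 lay within the range of the libraries labelled vehicle. The homeobox gene Msx1 held 41.8% in SP 1, and Mdfic, which encodes an inhibitor of transcription factors, held 37.0%.

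Between genes, levels were compared per kilobase of the principal transcript in GENCODE M21. In the mean of the 5 libraries other than SP 1, Ttr had 2936 CPM per kilobase and Enpp2 had 576, while Kl had 32.5 and Kcnj13 had 23.5. In SP 1 the same quantity was 105 for Ttr and 70.6 for Enpp2. Per length, Ttr was thus several-fold above Enpp2 in the other libraries and nearer to it in SP 1. Of the members, 9 share exon bases with another annotated gene, 3 of them on the same strand, namely Prlr, Rdh5 and Otx2, and their counts could include reads of that gene.

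The promoters of these members are shown because the genes were low together in 1 library. RefSeq windows on GRCm38.p6, from 250 bases before to 50 after a start, were found for 24 of the 31 members, in 32 windows. The windows were searched on both strands for TAATCC (OTX type), TAATTG (MSX type), GTAAACA (forkhead) and, for the TATA box, the letters TATAAA. The MSX type letters TAATTG were in 15.6% of the member windows and in 8.00% of all 32851 windows, TAATCC in 9.38% and 7.06%, GTAAACA in 3.12% and 3.65%, and TATAAA in 15.6% and 13.6%. These matches are a description of letters in the windows. Kcnj13 (chr1:87394680-87394979, minus strand), Tmem72 (chr6:116716709-116717008, minus strand) and Cldn2 (chrX:139800558-139800857, plus strand) are printed 5′ to 3′ along the gene, with the motifs in capitals, TAATTG and TATAAA in Kcnj13, TAATTG in Tmem72 and TATAAA in Cldn2.
Kcnj13: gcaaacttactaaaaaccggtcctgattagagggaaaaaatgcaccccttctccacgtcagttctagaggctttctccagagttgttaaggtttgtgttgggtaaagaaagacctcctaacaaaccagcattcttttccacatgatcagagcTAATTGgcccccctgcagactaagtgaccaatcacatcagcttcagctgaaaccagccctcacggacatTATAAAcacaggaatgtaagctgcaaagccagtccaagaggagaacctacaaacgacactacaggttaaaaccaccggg
Tmem72: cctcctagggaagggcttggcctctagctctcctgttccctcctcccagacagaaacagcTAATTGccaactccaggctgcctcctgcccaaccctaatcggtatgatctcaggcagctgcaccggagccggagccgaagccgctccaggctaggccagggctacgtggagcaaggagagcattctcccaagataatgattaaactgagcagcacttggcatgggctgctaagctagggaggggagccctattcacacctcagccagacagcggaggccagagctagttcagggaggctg
Cldn2: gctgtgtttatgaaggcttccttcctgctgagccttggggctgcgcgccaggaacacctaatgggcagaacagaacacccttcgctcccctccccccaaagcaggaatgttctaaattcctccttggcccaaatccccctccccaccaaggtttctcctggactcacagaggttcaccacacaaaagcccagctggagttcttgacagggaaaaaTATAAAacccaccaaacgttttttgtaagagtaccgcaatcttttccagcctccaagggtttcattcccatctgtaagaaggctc
In these 3 genes SP 1 was under 10% of the mean of the other libraries. Of the other members with TAATTG or TATAAA in a window, Slc4a5 held 4.51%, Ace 19.0%, Otx2 21.8% and Cab39l 51.4%, so the letters did not go with 1 level in SP 1.

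Most listed genes of the same tissue outside the members were also low in SP 1. This list and those of other cell types were chosen with earlier results of these data known, so they give no independent support. Of 15 other choroid plexus epithelial genes, 12 were more than 2-fold lower in SP 1 than in the other 5, against 1.85% of all genes tested. Their median level in SP 1 was 22.4% of the mean of the others. Ecrg4, which encodes a secreted precursor of the augurin peptide, had 41.2, 45.6 and 50.7 CPM in Vehicle 1 to 3 and 4.30, 33.4 and 46.4 CPM in SP 1 to 3. Abca4, a retinoid transporter gene, held 9.05% in SP 1. The organic anion transporter gene Slc22a8, which is also transcribed in brain vessels, held 93.0%. Of 9 ion transport genes that act in fluid secretion and are also transcribed in neurons or glia, 1 was lower, the anion exchanger gene Slc4a2 with 36.7%, and the median was 84.4%.

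Most markers of other cell types were not low in SP 1. The 10 ependymal genes, led by Foxj1, summed to 73.3, 65.1 and 67.9 CPM in Vehicle 1 to 3 and 66.0, 80.2 and 81.9 CPM in SP 1 to 3. The 10 fibroblast genes, led by Igf2, summed to 382, 374 and 444 CPM against 275, 237 and 348 CPM. In Igf2, which choroid plexus also transcribes, SP 1 held 48.8% of the mean of the others, whereas the median of the fibroblast list was 100%. The ependymal gene Mia held 55.6% and the macrophage gene Ms4a7 52.4%, within the range of the members, and SP 1 was the lowest library for 4 of the 10 ependymal genes. The 9 endothelial genes, led by Flt1, summed to 247, 256 and 261 CPM against 264, 245 and 252 CPM. The 7 genes of border macrophages, led by Mrc1, summed to 11.9, 13.9 and 14.1 CPM against 12.9, 9.33 and 8.88 CPM. In each of these 4 lists, 0 genes were more than 2-fold lower in SP 1 by mean log2 CPM, where Igf2 fell just short at -0.996 though its ratio to the mean CPM was beyond 2-fold, and 0 genes were at 0 in all libraries.

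The 9 genes of mature oligodendrocytes, led by Mbp, summed to 4236, 4244 and 4766 CPM in Vehicle 1 to 3 and 5405, 6963 and 4864 CPM in SP 1 to 3. Their highest library was SP 2, which was also the lowest of the 5 libraries other than SP 1 for most members. Their median in SP 1 was 106% of the mean of the others. By the labels, 0 of these 9 genes had a log2 fold change of SP minus vehicle below 0, against 49.5% of all genes, and their median was 0.35. The paper lists Mag and Mbp, which are among them, as downregulated under SP. Each direction of SP against vehicle given here, also for the members, rests on the labels, which were not tested. Of the oligodendrocyte and hippocampal neuron genes, 0 of 9 in each list were more than 2-fold lower in SP 1. Of all 316 genes more than 2-fold lower in SP 1, 29 were members, 12 were of the other choroid plexus list and 275 were of neither list. These 275 were not sorted by tissue, and they include Mfrp and Large2, given below among the genes most like Ttr. The part of tissue content in these differences was not tested.

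**Figure D3:**
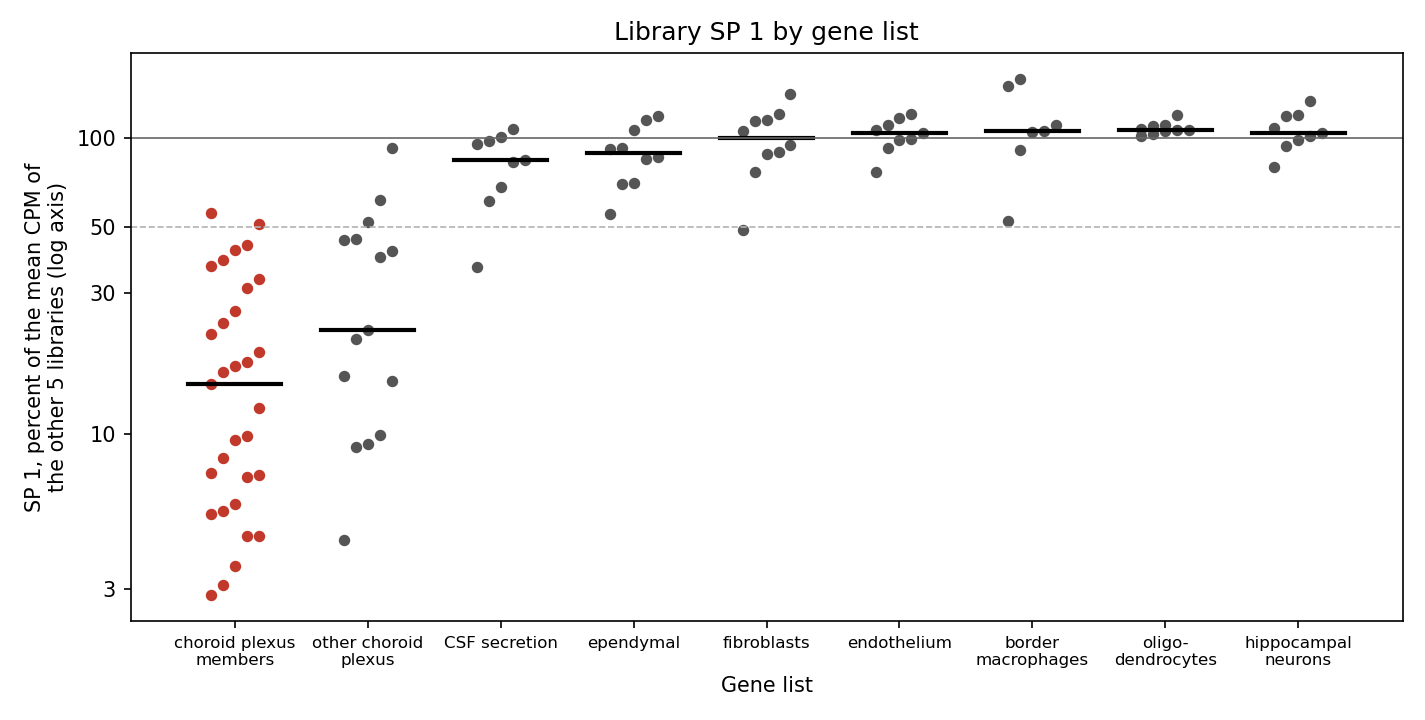
Level of each gene in library SP 1 as a percent of its mean CPM in the other 5 libraries, on a log axis, for the members (red) and for 8 other gene lists (grey), with the median of each list as a black line. The medians are 14.8% for the members and 22.4% for the other choroid plexus genes, and those of the other 7 lists lie between 84.4% and 106%.

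The genes most like Ttr outside the members were the 10 with the highest Pearson's r of log2 CPM with Ttr over the 6 libraries, among 331 genes with a mean of at least 1 CPM and an SD of log2 CPM of at least 0.5. They were Ecrg4, Large2, Mfrp, Tmprss11a, Slc37a2, Glb1l2, Col4a3, Cdh3, Col8a2 and Pla2g5, with r from 0.993 to 0.999. Because SP 1 lies far from the other libraries, r over 6 libraries rests on it, and without SP 1 the r of these 10 genes ran from 0.69 for Cdh3 to 0.97 for Col4a3. Mfrp, a frizzled-related membrane protein gene that shares exon bases with C1qtnf5 on the same strand, had 60.2, 48.4 and 68.5 CPM in Vehicle 1 to 3 and 2.43, 35.4 and 56.4 CPM in SP 1 to 3. Large2 and Tmprss11a had 1 count each in SP 1. Over the 30 members other than Ttr, the median r with Ttr was 0.990 over 6 libraries and 0.896 without SP 1. Without SP 1 it was lowest in Wfikkn2, Col8a1 and Sostdc1, at -0.55, 0.04 and 0.41.

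In the comparison of SP with vehicle, 0 of 31 members passed FDR < 0.1 and |log2FC| > 0.3 in edgeR's quasi-likelihood test with the replicate number as a block, where 5 of 17069 genes, 0.0293%, passed. DESeq2 and limma-voom with the same block called 0 members as well, among 36 and 2 genes called in all. All 31 log2 fold changes were below 0, as were 49.5% of those of all genes. Their median was -0.99, against 0.0015 over all genes. The lowest FDR in edgeR was 0.351, of Car12, whose log2 fold change was -0.50 (standard error 0.131). For Ttr the log2 fold change was -1.58 with a standard error of 0.863 and an FDR of 0.583 in edgeR, and its standard error was the largest of the members. This value was -0.84 with no replicate block, -0.35 without SP 1 and -2.61 without SP 3. An unadjusted p under 0.05 with a lower level under SP was found for 14 members, and for 5.59% of all genes. This number varied with the fit. With no replicate block it was 2 members, against 5.96% of all genes, so that the members were then close to all genes. It was 3 in DESeq2 (2.31% of all genes), 15 in limma-voom (5.40%), 30 without SP 2 (5.98%) or without Vehicle 2 (5.87%), and 19 without SP 1 (3.57%). With the block, leaving out SP 2 or Vehicle 2 takes the same pair out of the fold change. In 10 members the groups did not overlap, with SP lower, which held for 9.05% of all genes tested.

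Within the replicate numbers, the median log2 difference of SP minus vehicle over the members was -2.89 for replicate 1, -0.27 for replicate 2 and -0.33 for replicate 3. Of the 31 members, 31, 26 and 30 were lower under SP in these pairs. The median over all genes in the same pairs was 0.00027, -0.0021 and 0.0011. Without SP 1, the median log2 fold change was -0.28, against -0.00070 over all genes. In that fit 30 of 31 members were below 0, against 50.3% of all genes. The exception was Wfikkn2, with 0.09. With the replicate block kept, Vehicle 1 then had no partner and no weight in the fold change. The fit without SP 1 therefore compared the pairs of replicates 2 and 3, and leaving out both mice of replicate 1 also gave a median of -0.28. Lists of other cell types, in which 0 genes were called, had medians in this fit of -0.41 for fibroblasts, -0.69 for border macrophages, 0.26 for ependymal cells, 0.36 for oligodendrocytes, 0.16 for hippocampal neurons and -0.04 for endothelium. In this fit 1 member was called, Prlr, at -0.66 on the log2 scale with a standard error of 0.0890 and an FDR of 0.0927 in edgeR, and 18 of 17578 genes were called in all. With both mice of replicate 1 left out, 0 members were called and the lowest FDR of a member was 0.128. The groups did not overlap in 10 members without SP 1, against 13.6% of all genes. SP 2 was below all libraries labelled vehicle in 26 members and in 31.8% of all genes, and SP 3 in 11 members and in 27.6% of all genes. As a share of the vehicle mean, the median member stood at 71.8% in SP 2 and at 90.6% in SP 3.

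**Figure D4:**
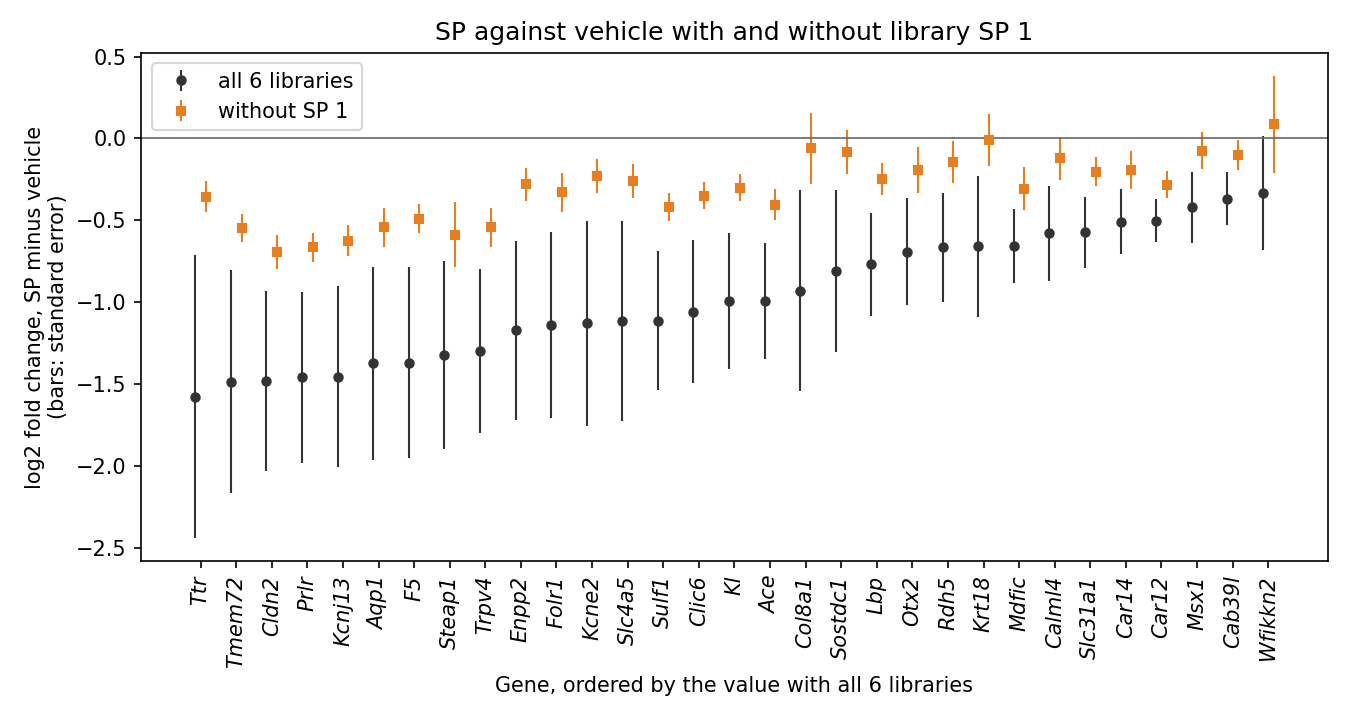
Log2 fold change of SP minus vehicle for the 31 members from edgeR's fit with the replicate block, with all 6 libraries (black) and without library SP 1 (orange). Bars are 1 standard error, derived from the F statistic of the test. The median moves from -0.99 to -0.28 when SP 1 is left out, and 30 of 31 values stay below 0, against 50.3% of all genes. With the block, Vehicle 1 has no weight in the orange values.

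The number of members called depended on the filter for low counts. With no filter 18 members and 9 of the 24 other choroid plexus and fluid secretion genes were called, among 384 of 28039 genes, whereas with at least 10 counts in every library 0 members were called. With the filter, 0 of these 24 other genes were called in edgeR, 12 had an unadjusted p under 0.05 with a lower level and 0 with a higher one, and DESeq2 called 1. Of the 15 other choroid plexus genes, 15 had a log2 fold change below 0, against 49.5% of all genes. Their median was -0.73, and without SP 1 it was -0.32. The 9 fluid secretion genes had a median of -0.15, and 0.0055 without SP 1. For 1 gene, the smallest two-sided p that an exact permutation of 3 against 3 mice allows is 0.1, with the replicate pairs ignored.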

How the data were processed

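The authors sequenced stranded mRNA libraries of hippocampus, used a Nextflow pipeline with Trim Galore for trimming, STAR for alignment to GRCm38 and Salmon for quantification, and deposited estimated counts per gene. Tool versions and the annotation release are not given in the sources used here. The deposited estimated counts carry no scaling by depth or length, and 9.77% were not exactly whole (3.95% by more than 0.01), so they were rounded. Each mouse gave 1 library, with 22349964 to 27605935 counts.

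Genes were tested in R 4.3.3 with edgeR 4.0.16 (filterByExpr given the design with its block, minimum count 10 and minimum total 15, TMM factors from 0.993 to 1.01, glmQLFit and glmQLFTest, replicate number as a block, Benjamini-Hochberg adjustment over the 17069 genes tested). The form of filterByExpr was chosen after seeing the data: it was first run with group sizes, which kept 16707 genes, and was changed to the form that gave the gene number known from an earlier analysis of these data. Genes called in all went from 0 to 5 with this change, and members called were 0 in both. The SD used to judge whether a median moved was also changed after seeing the data, from that of the 3 replicate pairs, 1.49, to that of the 3 libraries labelled vehicle, 0.263. The standard errors given for edgeR were derived, as the absolute log2 fold change divided by the square root of the F statistic of the test. DESeq2 1.42.0 and limma 3.58.1 were alternatives. Each library was compared with the other 5 on log2 CPM with a prior count of 2. The replicate number is called a batch in the labels, which is where the pairing comes from. Deviations from the group means correlated across genes with r of 0.0140, -0.0656 and 0.0734 in the 3 pairs.

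The members and lists were chosen with earlier results of these data known. Genes named were the 31 members, genes of 8 other lists and the 10 genes most like Ttr. Most list genes are given only within sums, counts and medians. Positions, overlaps and transcript lengths came from GENCODE M21 and promoters from RefSeq. The length used for levels per kilobase was changed, after values were seen, from merged exon bases to the principal transcript. The fit was also run on simulated data, and no value given here rests on that run. A count of 0 allows up to 0.109 to 0.135 CPM, from 3 counts of each total.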

Additional observations from a re-analysis of the deposited data

How the results depend on the processing

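Without the replicate block, which also left 16707 genes after the filter, the members' median log2 fold change was -0.77, with 0 members and 2 genes called. With the block and low-count filtering by group sizes, added after seeing the data, 16707 genes were tested, the median was -0.99, 0 members and 0 other choroid plexus or fluid secretion genes were called, and genes called in all were 0 instead of 5. With no filter on low counts, 18 members and 9 of those other genes were called, among 384 genes. With the filter, DESeq2 called 1 of those other genes, among 36 genes. Leaving out both mice of a number gave medians of -1.46 to -0.28, 0 members called and 0 to 2 other genes called, among 9 to 36 genes called in all. Leaving out 1 library gave medians of -1.46 to -0.28, 0 to 1 members called (1 without SP 1) and 0 to 3 other genes called, among 18 to 127 genes in all. With the block, a mouse left without its partner has no weight in the fold change. The medians without 1 library therefore repeat those without its pair and are no separate check. The cause of the differences in genes called was not tested. The median ratio of SP 1 to the other 5 was -4.02 for the 12 defining markers and kept its direction under every alternative run. These markers are members, which were chosen with the levels in SP 1 known, so the kept direction is no check. For Vehicle 1, 2 and 3, SP 2 and SP 3 the members' median ratio was 0.14, -0.11, 0.41, -0.42 and -0.037 with SP 1 left out of the reference (chosen after seeing the data). It was 0.026, -0.30, 0.29, 1.04 and 1.50 against the same label only, and 0.20, -0.035, 0.39, -0.31 and 0.046 against the median of the others. With the 12 defining markers it was 1.02 for Vehicle 1 and 1.31 for Vehicle 3. Of 526 log2 fold changes of single members under alternatives, 282 moved by more than the SD of that gene's log2 CPM over the 3 libraries labelled vehicle, and 3 changed sign. Low counts in SP 1, such as 4 in Steap1, limit the precision of its ratios.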
